A study of Mus musculus with 24 samples.

Results

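The proximal end of the maxilla, the upper jaw process, was compared between Tgfbr2 knockout and control mouse embryos at embryonic day 12.5. Of the 24 arrays of the series, 6 belonged to this comparison by their labels for genotype, jaw and end. They were 3 arrays labelled Tgfbr2 knockout, maxilla, proximal, and 3 arrays labelled control, maxilla, proximal. The other 18 arrays held the distal maxilla and both ends of the mandible. All mice had the C57B6 background, and the embryos came from Wnt1cre;Tgfbr2fl/+ animals crossed with Tgfbr2fl/fl animals, per the series text. Mutants were recognised by a cleft palate and a calvarial defect, and controls were litter mates. The sources used here do not state the genotype of the controls, nor whether embryos were pooled or arrays came from separate embryos. P-values therefore measure the spread between arrays, which the fit pooled over the 8 groups of the series.

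TGF-beta ligands bind the type II receptor encoded by Tgfbr2, which recruits and phosphorylates a type I receptor that in turn activates Smad transcription factors. Wnt1-Cre recombines floxed alleles in cranial neural crest, the source of most jaw mesenchyme. Muscle cells, endothelium, macrophages and surface epithelium of the jaw are not of crest origin, whereas cranial sensory ganglia hold neurons of crest and of placode origin, with crest-derived glia. Loss of the receptor in this lineage is known to cause cleft palate. Bulk RNA was measured, so fewer cells of a type and less RNA per cell cannot be told apart.

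Values are log2 RMA signals, and differences are knockout minus control. Array medians lay between 7.26 and 7.38 over the 24 arrays. The 30th percentile of an array, the level a gene had to pass in at least 3 arrays to be tested, lay between 5.85 and 5.93, and 14879 genes were tested. One control array, number 2, carried Y-linked signal (Eif2s3y 10.22, against 3.42 to 3.69 in the other 5). Hand2, a bHLH factor of the mandibular arch, read 5.12 to 7.88 in the 6 arrays and 11.86 to 13.59 in the control mandible arrays, and so was low in all 6. Other genes that separate the jaws in the controls did not follow the labels in every array: Sp8, Elf5 and Dmrt3 read 4.61, 5.82 and 6.30 in knockout 1 and 5.87, 5.43 and 5.97 in knockout 2, where the control mandible arrays read 4.26 to 4.71, 5.63 to 6.40 and 5.96 to 6.37. Sp8 in knockout 2 lay above that range. Beyond a division of each jaw into distal and proximal ends, the sources used here do not describe the dissection, and whether the tissue taken differed between arrays was not tested.

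The 3 knockout arrays were not alike. Correlations were taken across genes after each gene was centred on its mean over the 24 arrays. Knockout 3 correlated on average at 0.56 with the 3 controls of its own region and at 0.20 with the other knockouts. Knockouts 1 and 2 correlated with their own group at 0.44 and 0.50, and with the controls at -0.17 and 0.02. Outside their own group their highest mean correlation was with control proximal mandible (0.25 and 0.07), against -0.27 and -0.08 with control distal maxilla. Knockout 3 therefore stood nearer to the controls than to its own group. Among the controls, number 1 correlated at 0.69 with control distal maxilla and at 0.54 with its own group, whereas numbers 2 and 3 stood nearest to their own group (0.68 and 0.71).

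In the knockout arrays, genes of sensory neurons and skeletal muscle were higher, and genes of epithelium were lower, the latter in knockouts 1 and 2. Single genes known from nasal and anterior head ectoderm, such as Sp8 and Otx2, were among the largest falls. The largest rise was 5.58 for Ppp1r1c, and the largest fall was 3.74 on the log2 scale for the epithelial factor Elf5. With an adjusted p under 0.05 in limma, 859 of 14879 genes were called, which is 5.77% of those tested. Of these, 483 (3.25%) were higher and 376 (2.53%) were lower in the knockout, while the median change of all genes was 0. A change of at least 1 was reached by 252 of the genes called higher and 96 of those called lower. The 3 knockout arrays all lay above the 3 controls for 1604 genes (10.8%) and all below them for 2167 (14.6%), and 752 of the genes called were among these. In 37 genes called higher the control mean, and in 21 called lower the knockout mean, lay below the filter level, so the size of their changes is not firm. Ppp1r1c, Pou4f1, Onecut2, D930028M14Rik, Hoxd1 and Tnnt2, all described below, were among the 37.

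**Figure D1:**
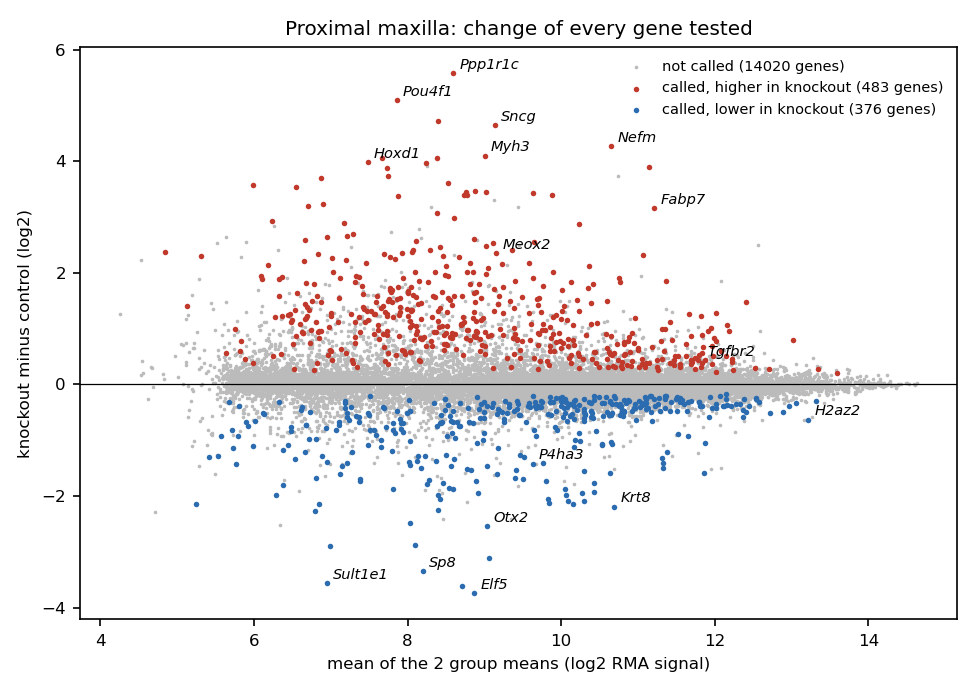
Knockout minus control (log2) against the mean of both group means (log2 RMA signal) for each gene tested in proximal maxilla. Red and blue points are the 483 and 376 genes called higher and lower in the knockout, grey points were not called; rises reach 5.58 and falls 3.74.

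The count depended on single arrays. Leaving out control 1, 2 or 3 gave 25, 101 and 103 calls, and leaving out knockout 1 or 2 gave 36 and 19. Without knockout 3 the count was 3366 (22.6%), with 1693 higher (11.4%) and 1673 lower (11.2%), and 857 of the 859 genes were called there too. Fitted on the 6 arrays alone, with 4 residual degrees of freedom, limma called 0 genes, with 2290 at an unadjusted p under 0.05. With knockouts 1 and 2 both left out, which leaves 1 knockout array whose spread is assumed to be that of the other groups, 7 genes were called, all 7 among the 859. Without both ends of control maxilla 1 and of knockout mandible 1, 15 were called. Called in all 6 fits that leave out 1 array were 17 genes, 13 higher and 4 lower, so each other gene described as called below lost its call in at least 1 of these fits. Most named genes lost it without any 1 of the 3 controls or of knockouts 1 and 2, and none without knockout 3.

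**Figure D2:**
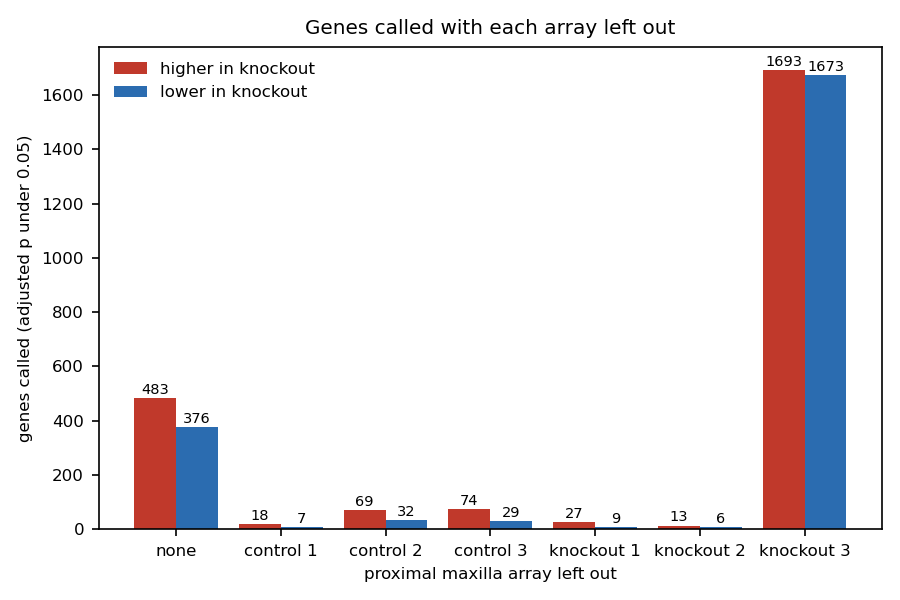
Number of genes called (adjusted p under 0.05) in proximal maxilla with all arrays and with each of the 6 arrays left out; red bars are genes higher and blue bars genes lower in the knockout. The count goes from 483 and 376 with all arrays to 1693 and 1673 without knockout 3, and lies at 74 or below without any other array.

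For the 859 genes called, knockout 3 showed a median of 26.9% of the difference between the control mean and the mean of knockouts 1 and 2 (quartiles 14.9% and 42.5%). It lay between these means in 817 genes and nearer to the control mean in 710. In 56 genes it showed at least 75% of the difference. 

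**Figure D3:**
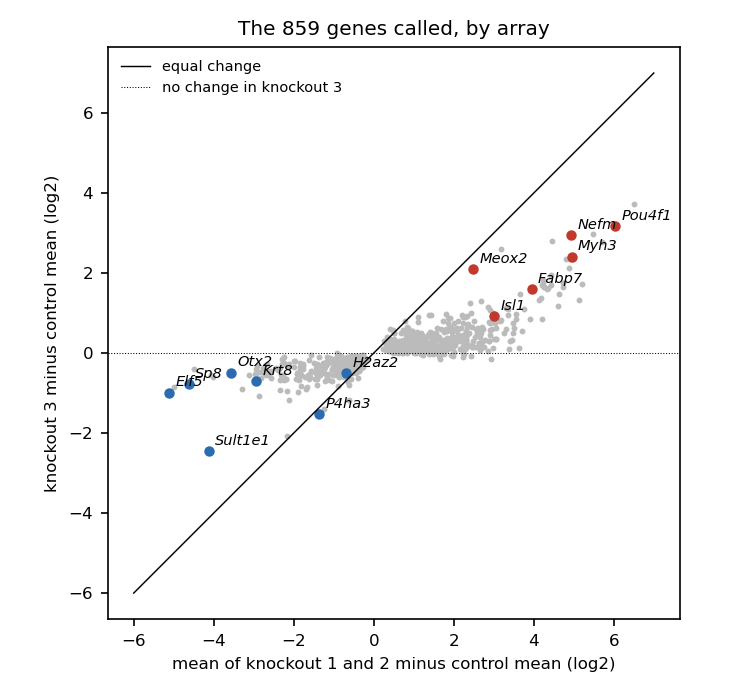
Knockout 3 minus the control mean against the mean of knockouts 1 and 2 minus the control mean (both log2) for the 859 genes called; the solid line marks equal change and the dotted line no change in knockout 3. Most points lie between both lines (median 26.9% of the difference), and Meox2 and P4ha3 lie close to the line of equal change.

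Genes of sensory neurons were among the largest rises. Pou4f1, a POU-homeodomain factor of cranial and dorsal root ganglion neurons, read 5.26, 5.25 and 5.43 in controls 1, 2 and 3 and 11.41, 11.29 and 8.50 in knockouts 1, 2 and 3. The groups did not overlap, and the knockout with the lowest value was number 3. The change was 5.09 (SE 0.48, limma adjusted p = 2.25e-05), and the second probe set of the gene gave 5.33. This SE rests on a spread pooled over all 8 groups, whereas the SD was 1.65 in the knockouts and 0.10 in the controls. Limma on the 6 arrays alone gave an adjusted p of 0.325. Sncg, gamma-synuclein, which is abundant in peripheral neurons, read 6.79, 6.68 and 6.95 in the controls and 12.79, 11.80 and 9.79 in the knockouts. It rose by 4.65 (SE 0.48, adjusted p = 6.51e-05), again with the smallest difference in knockout 3. Prrxl1, a paired-homeodomain factor of nociceptive neurons, read 6.23, 6.40 and 6.15 against 11.48, 10.79 and 8.39, a rise of 3.96 (SE 0.46, adjusted p = 0.000331).

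Of the 24 genes in the sensory neuron list, 21 were tested; 11 rose, 0 fell and 10 were not called, with a median change of 1.22 against 0 over all genes. The neurofilament genes Nefm and Nefl rose by 4.27 and 3.90, the intermediate filament gene Prph by 3.40, the LIM-homeodomain gene Isl1 by 2.31 and Tlx3, a homeobox gene of sensory neurons, by 2.22. Syt4, Dcx and Gap43, which serve vesicle release, microtubules and axon growth, rose by 2.12, 1.72 and 0.99. The early neurogenic factors Neurog1 (-0.03), Neurod1 (0.48), Nhlh1 (0.29) and Nhlh2 (0.17) were not called. Also not called were Stmn2, Tubb3, Elavl3, Elavl4 (0.81), Scg2 and Runx1, the lowest gene of the list. Factors and filaments of differentiated neurons were thus among the rises, but the calls did not separate early from differentiated neuron genes.

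The list's level in an array is the average, over its genes, of the distance to each gene's 24-array mean. It was 0.17 to 0.48 in the controls and 2.89, 2.66 and 1.25 in knockouts 1, 2 and 3. All 3 knockouts were above the controls. Leaving out single arrays left 3 to 8 genes of the list called, except 14 without knockout 3, where 11.4% of all genes rose. With knockouts 1 and 2 both out, the knockout arm is array 3 alone, assumed to vary like the other groups; 3 were then called, Pou4f1 (3.18, adjusted p = 1.5e-05), Prrxl1 (2.13, 0.00026) and Sncg (2.98, 0.00131).

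Several further large rises lay in genes known from neurons. Ppp1r1c, a regulatory subunit that inhibits protein phosphatase 1, read 5.92, 5.83 and 5.65 in the controls and 12.45, 12.16 and 9.52 in the knockouts. Its change of 5.58 (SE 0.51, adjusted p = 2.25e-05) was the largest of all genes tested. The control mean of Ppp1r1c, 5.8, lay below the filter level, so the size of this rise is not firm. Ppp1r17, another phosphatase inhibitor, read 6.09, 5.91 and 6.08 against 11.80, 11.65 and 8.81, a rise of 4.72 (adjusted p = 0.000353). Onecut2, a cut-homeodomain factor, rose by 4.05, with similar changes of 3.59 and 3.77 in its other 2 probe sets, and the unnamed transcript D930028M14Rik rose by 3.87. In control proximal mandible Ppp1r1c read 8.76 to 9.89, Ppp1r17 7.74 to 9.23 and Onecut2 7.33 to 8.69, between the control and the highest knockout values of proximal maxilla. Onecut2 lost its call without knockout 2.

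Called in all 6 leave-out fits, a criterion added after the data were seen, were Ppp1r1c, Pou4f1, Sncg, Prrxl1, Ppp1r17, Rbfox3, Hivep3, Trim67, Ptprr, Ano4, Fgf13, Grm2 and 2610524H06Rik, all higher, and H2az2, Dmrta1, Glt28d2 and 2310068J16Rik, all lower. Rbfox3, the splicing factor detected as NeuN in neurons, read 7.82, 7.95 and 7.97 in the controls and 12.53, 11.97 and 9.53 in the knockouts, a change of 3.43. Trim67, a tripartite-motif protein of neurons, read 5.45, 5.13 and 5.24 against 9.67, 9.21 and 6.65, a change of 3.24. Fgf13, an intracellular FGF homologue that binds sodium channels, changed by 1.86, Ptprr, a receptor-type phosphatase, by 2.29, and Grm2, a metabotropic glutamate receptor, by 0.88. The transcript 2610524H06Rik changed by 0.68, and by 0.68, 0.57 and 0.57 in distal maxilla, proximal mandible and distal mandible. Its rise was thus not particular to proximal maxilla. Probe sets disagreed for 2 of these genes. Hivep3 changed by 3.60 in the probe set used and by 0.15 to 0.63 in 4 others, and Rbfox3 by 1.20 in another probe set above the filter.

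Genes of Schwann cell precursors and glia, the crest-derived companions of ganglion neurons and nerves, were also higher. Of 9 tested, 4 rose, 0 fell and 5 were not called, with a median change of 0.77. Fabp7, a fatty acid binding protein of glial precursors, read 8.41, 10.47 and 10.02 in the controls and 13.49, 13.67 and 11.22 in the knockouts, a rise of 3.16 (SE 0.83, adjusted p = 0.0338). The endothelin receptor gene Ednrb rose by 1.79, the cadherin gene Cdh19 by 1.53 and Foxd3, a factor of premigratory crest and its glial derivatives, by 1.05. The list's level was -0.46 to 0.23 in the controls and 1.33, 1.06 and 0.38 in the knockouts, so it moved with the sensory neuron list. None of the 4 calls remained when any 1 array other than knockout 3 was left out (0 called), and 5 genes were called without knockout 3. Of all genes, 11.4% were called higher in that last fit. The related melanoblast list had 0 of 5 genes called and a median of 0.67, from -0.07 for Kit to 1.05 for Pmel.

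Skeletal muscle genes rose as a second large group. Myh3, the embryonic myosin heavy chain, read 6.46, 7.42 and 6.98 in the controls and 12.72, 11.07 and 9.36 in the knockouts. No control reached the lowest knockout, but the knockouts themselves spread over more than 3 log2 units. The change was 4.10 with an SE of 1.2 (limma adjusted p = 0.0485), just under the threshold. Myl4, an embryonic and atrial myosin light chain, read 5.56, 7.03 and 6.48 against 11.97, 10.56 and 8.72 and rose by 4.06 (adjusted p = 0.0338), which its second probe set, below the filter, did not show (0.19). The troponin genes Tnnc2 and Tnnt2 rose by 3.74 and 3.70.

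Of the 28 muscle genes, all tested, 11 rose, 0 fell and 17 were not called, with a median change of 2.78 against 0 over all genes. The 11 were the myosin genes Myh3, Myh8, Myl1, Myl4 and Mylpf, the troponin genes Tnnt2, Tnnc1, Tnnc2 and Tnni1, the giant thin-filament gene Neb and the muscle cadherin Cdh15. The myogenic factors Myod1 (2.63, adjusted p = 0.0543), Myog (3.31, 0.0524) and Myf5 (1.87) were not called, and neither were Ttn (3.92) and Actc1 (3.74), whose changes were larger than those of several genes called. Pax7, which marks muscle progenitors and also cranial crest, was at -1.79 (adjusted p = 0.0537) and was the single gene of the list with a negative change. The list's level was -2.09, -1.64 and -1.71 in the controls and 1.78, 0.51 and -0.64 in knockouts 1, 2 and 3. In control proximal mandible it was 1.64. Leaving out any 1 array other than knockout 3 left 0 of the 28 called, while 24 rose and 1 fell without knockout 3. In that last fit 11.4% of all genes rose and 11.2% fell.

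The promoters of the muscle genes are shown because these genes moved together. Windows of 300 bases around the first listed RefSeq start (250 before, 50 after; GRCm38.p6) were found for 10 of the 11 genes and searched on both strands for CAGCTG, an E-box form that myogenic bHLH factors bind. It was present in 4 of the 10 windows and in 16.1% of 27025 such windows of all genes. Mylpf (chr7:127211358-127211657, plus strand), Tnni1 (chr1:135799171-135799470, plus), Tnnt2 (chr1:135836084-135836383, plus) and Myl1 (chr1:66945007-66945306, minus) held it. The sequences run 5′ to 3′ along the gene, with each match in capitals.
Mylpf: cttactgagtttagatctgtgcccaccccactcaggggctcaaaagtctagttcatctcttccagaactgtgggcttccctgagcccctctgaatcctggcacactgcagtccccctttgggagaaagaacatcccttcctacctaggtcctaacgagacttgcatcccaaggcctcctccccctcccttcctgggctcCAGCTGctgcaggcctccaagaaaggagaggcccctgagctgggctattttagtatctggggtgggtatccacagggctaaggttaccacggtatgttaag
Tnni1: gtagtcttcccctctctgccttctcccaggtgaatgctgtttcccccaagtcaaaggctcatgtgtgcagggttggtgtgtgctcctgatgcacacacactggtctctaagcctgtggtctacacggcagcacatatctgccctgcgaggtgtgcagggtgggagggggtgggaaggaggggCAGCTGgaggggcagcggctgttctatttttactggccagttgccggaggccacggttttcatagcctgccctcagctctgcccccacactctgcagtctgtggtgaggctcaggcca
Tnnt2: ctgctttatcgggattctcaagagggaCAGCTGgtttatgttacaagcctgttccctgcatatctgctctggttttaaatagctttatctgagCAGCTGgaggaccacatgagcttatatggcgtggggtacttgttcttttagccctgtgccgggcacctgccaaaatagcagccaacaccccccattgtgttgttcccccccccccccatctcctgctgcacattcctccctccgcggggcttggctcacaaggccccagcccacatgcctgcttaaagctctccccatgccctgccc
Myl1: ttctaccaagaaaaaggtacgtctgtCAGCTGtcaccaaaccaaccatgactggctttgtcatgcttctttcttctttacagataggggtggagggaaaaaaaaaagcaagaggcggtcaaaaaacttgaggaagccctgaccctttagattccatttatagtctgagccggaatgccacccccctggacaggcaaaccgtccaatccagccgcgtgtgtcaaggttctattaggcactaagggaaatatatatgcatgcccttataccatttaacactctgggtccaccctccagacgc
Tnnt2 had 2 matches and the other 3 windows had 1 each, which in Mylpf and Tnni1 began 51 and 68 bases before the start. For Mef2 factors, muscle activators that work with the myogenic bHLH factors, a pattern with fixed ends and any 4 bases between them was searched. This pattern was in 0 of the 10 windows and in 3.7% of all windows. It differs from the AT-rich motif of Mef2 factors in its centre and ends. The AT-rich motif itself was not searched, so these counts do not show whether the windows held Mef2 sites. Of the 11 neuron genes called, 7 had a window. The E-box form CAGATG was in 1 of them (17.2% of all windows), Sncg (chr14:34374620-34374919, minus), shown with the match, here as its reverse complement CATCTG, in capitals:
Sncg: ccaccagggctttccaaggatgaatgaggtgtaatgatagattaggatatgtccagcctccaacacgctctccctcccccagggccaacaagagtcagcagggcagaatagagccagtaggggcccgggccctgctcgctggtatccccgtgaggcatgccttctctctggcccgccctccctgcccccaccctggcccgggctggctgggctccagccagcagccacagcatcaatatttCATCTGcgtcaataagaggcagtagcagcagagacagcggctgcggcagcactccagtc
The homeodomain core TAATTA was in 1 of the 7, Dcx (5.31% of all windows). For the epithelial genes called, 5 of 9 had a window, and neither AACNNGTT nor AACCGGTT, which it includes, was found there (4.19% and 0.152% of all windows).

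Epithelial genes were lower in knockouts 1 and 2. Krt8, a keratin of simple epithelia, read 11.83, 11.76 and 11.77 in the controls and 8.44, 9.27 and 11.08 in the knockouts. Knockouts 1 and 2 lay more than 2 log2 units under the controls, and knockout 3 less than 1 unit under them. The fall was 2.19 on the log2 scale (SE 0.61, adjusted p = 0.0418), and its other probe sets gave -2.20 and -2.11. Cldn7, a tight junction claudin, read 11.15, 11.47 and 11.41 against 7.88, 8.93 and 10.94 (change -2.09, adjusted p = 0.0229). Esrp1, the epithelial splicing regulator, read 10.82, 10.87 and 10.88 against 7.92, 8.10 and 10.38 (-2.06, 0.0216).

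Of 17 epithelial genes tested, 9 fell, 0 rose and 8 were not called, with a median of -1.38. Krt18 (-1.92), the transcription factor Grhl2 (-1.68), the adhesion genes Epcam (-1.59) and Cdh1 (-1.58), Cldn4 (-1.53) and Esrp2 (-1.38) also fell. Basal genes were not called: Trp63 had -1.14, Krt14 -0.80, Krt5 -0.47 and Krt15, the single gene with a positive change, 0.38. The list's level was 0.56, 0.10 and 0.14 in the controls and -1.62, -1.63 and 0.13 in the knockouts, so by this average knockout 3 lay among the controls. In Krt8, Cldn7, Esrp1, Krt18, Epcam and Esrp2, however, knockout 3 was below every control. In control proximal mandible the list's level was -0.83. Without any 1 array other than knockout 3, 0 of the 17 genes were called, and 12 fell without knockout 3. In that last fit 11.2% of all genes fell.

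Among the 12 largest falls were Sp8, Elf5, Otx2 and Dmrt3, which read above 9 in both ends of the control maxilla and 6.40 or less in the control mandible. Sp8, a zinc-finger factor of nasal and forebrain ectoderm, read 9.61, 10.10 and 9.88 in the controls and 4.61, 5.87 and 9.10 in the knockouts (change -3.34, SE 0.69, adjusted p = 0.0172). It read 9.29 to 10.09 in control distal maxilla and 4.26 to 4.71 in the control mandible arrays. Knockout 1 was thus at the level of the mandible, below the filter, and knockout 3 was 0.77 under the control mean. Elf5, an ETS factor of epithelia, read 10.92, 10.73 and 10.56 against 5.82, 5.43 and 9.74 (-3.74, SE 0.72, adjusted p = 0.0127), with 5.63 to 6.40 in the control mandible arrays. Otx2, a homeobox factor of the anterior head, read 10.10, 10.51 and 10.30 against 6.04, 7.43 and 9.82 (-2.54, 0.0347). Dmrt3, a doublesex-related factor, read 10.33, 10.79 and 10.75 against 6.30, 5.97 and 10.24 (-3.12, 0.0258), where the control mandible read 5.96 to 6.37. In all 4 genes knockouts 1 and 2 were low and knockout 3 was near the controls. Elf5 lost its call without control 1, knockout 1 or knockout 2, and the other 3 without any array except knockout 3. Further probe sets, all below the filter, gave -0.54 for Elf5 and -1.06 to 0.12 for Dmrt3.

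Other large falls were those of the lipid flippase gene Atp8b4 (-3.61), the estrogen sulfotransferase gene Sult1e1 (-3.56), Trim66 (-2.90), 5730403I07Rik (-2.88), the heparanase homologue Hpse2 (-2.49), Macc1 (-2.27) and the claudin gene Cldn23 (-2.25). Knockout 3 was close to the controls in most of these and lower in Sult1e1, which read 8.76, 9.00 and 8.42 in the controls and 4.59, 4.62 and 6.28 in the knockouts. The second probe set of Atp8b4, below the filter, gave -0.25. Of the 9 genes in the eye and forebrain list, Otx2 and Emx2 (-1.03), a homeobox gene of cortex and olfactory region, fell and 0 rose, with a median of -0.29. The list's level was 0.94 to 1.25 in the controls and 0.11, 1.28 and 0.85 in the knockouts. Emx2 read 10.97, 11.24 and 11.26 in the controls and 9.98, 9.52 and 10.88 in the knockouts, and its call was lost when any array other than knockout 3 was left out.

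**Figure D4:**
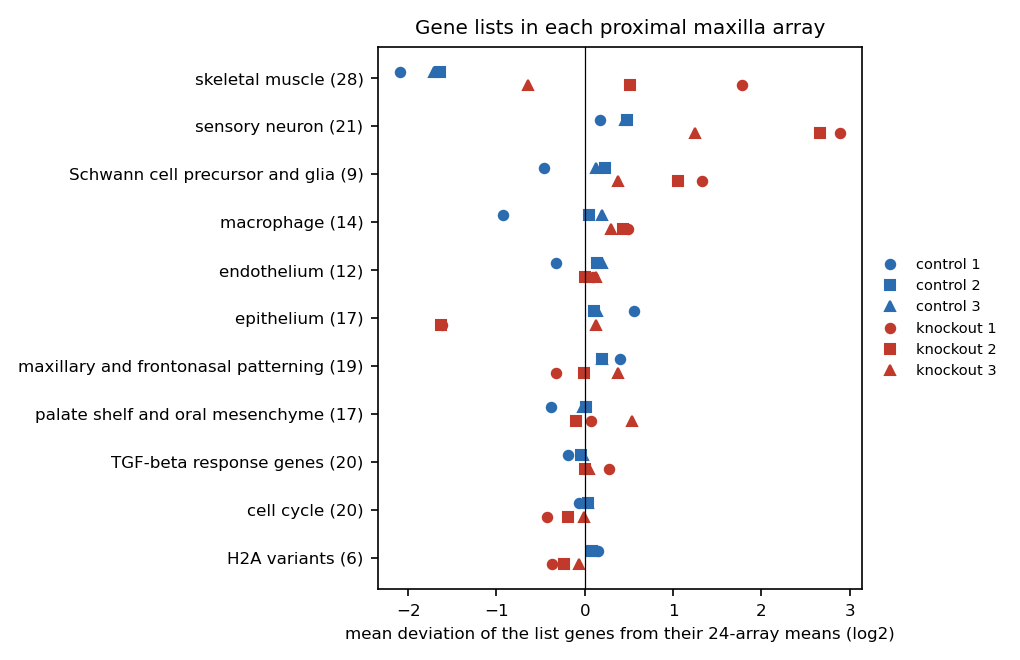
Mean deviation of the genes of 11 lists from their 24-array means (log2) in each control (blue) and knockout (red) array of proximal maxilla, with the number of genes tested in brackets; circles, squares and triangles are array numbers 1, 2 and 3. Muscle (-2.09 to -1.64 in controls, -0.64 to 1.78 in knockouts) and neuron lists separate the groups, and in the epithelium list knockouts 1 and 2 (-1.62 and -1.63) stand apart.

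Markers of other cell types moved less. Over all genes tested, 3.25% were called higher and 2.53% lower. Of 14 macrophage genes, 1 rose and 0 fell, with a median of 0.63 and positive changes in all 14. Ctss, a lysosomal protease, read 8.56, 9.69 and 9.75 in the controls and 10.42, 10.44 and 10.24 in the knockouts, a rise of 1.03 (adjusted p = 0.0368) in which knockout 3 took full part. Control 1 was the lowest array for this list (-0.93, against 0.05 and 0.19 in the other controls), and the median was 0.27 without it. Of 12 endothelial genes (median 0.06), 8 of pericytes and smooth muscle (0.05) and 9 of erythroid cells (-0.19), 0 were called. In these lists changes ran from -0.51 for Erg to 0.70 for Emcn, from -0.29 for Pdgfrb to 1.95 for Acta2 (adjusted p = 0.142), and from -0.63 for Hbb-bh1 to -0.04 for Hbb-y.

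Cartilage and bone, tissues that jaw mesenchyme goes on to form, showed 0 calls among 16 and 8 genes (medians 0.23 and 0.03), with the extremes Matn4 (1.49) and Sox5 (-0.43), and Sp5 (0.20) and Alpl (-1.06). Tendon genes had 0 of 10 called (median 0.40, from -0.19 for Scx to 1.50 for Thbs4). Extracellular matrix genes had 1 of 19 called, lower, where 2.53% of all genes were, with a median of 0.11. This was P4ha3, a collagen prolyl hydroxylase subunit, which read 10.69, 10.14 and 10.19 in the controls and 9.23, 8.71 and 8.81 in the knockouts. All 3 knockouts were lower to a like extent, and the fall was 1.42 on the log2 scale (SE 0.28, adjusted p = 0.0144); the call was lost without control 1 or knockout 2. Matrix proteases had 1 of 16 called, Adamts20, a versican-cleaving protease of crest and skin, which read 12.56, 12.49 and 12.15 against 11.27, 11.09 and 11.70 (-1.05, SE 0.19, adjusted p = 0.0115; list median 0.02).

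The targeted gene, Tgfbr2, showed no fall. Its probe set read 11.51, 11.69 and 11.63 in the controls and 12.39, 11.79 and 11.92 in the knockouts, a difference of 0.43 (SE 0.23, adjusted p = 0.25), and a second probe set above the filter gave 0.12. The place of the probe sets relative to the floxed exons is not stated in the labels, so these values do not check the genotype labels. Among 20 genes for TGF-beta ligands, receptors and Smads, 1 rose and 1 fell, with a median of -0.02. Ltbp2, a latent TGF-beta binding protein, read 5.43, 5.12 and 5.22 against 6.53, 6.21 and 6.03 and rose by 1.00 (adjusted p = 0.0393). Its controls lay below the filter level, so the size of this rise is not firm. Smad3, the receptor-regulated Smad of this pathway, read 12.28, 12.18 and 12.14 against 11.74, 11.66 and 12.11, a fall of 0.36 (adjusted p = 0.0394), with -0.10 and -0.18 in its other probe sets. The inhibitory Smad7 had -0.47 (adjusted p = 0.14), the type I receptor Tgfbr1 -0.27 and the ligands Tgfb2 -0.26 and Tgfb3 0.29.

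Of 20 TGF-beta response genes, 2 rose and 1 fell, with a median of 0.08. The rises were Ltbp2 and the metalloprotease Adam19 (0.67, adjusted p = 0.0438), and the fall was Tgif1, a repressor of Smad-driven transcription (-0.45, 0.0455). Classical targets were near 0 or not called: Ccn2 had 0.07, Fn1 -0.09, Pmepa1 -0.01, Postn 0.50 and Tgfbi 0.68. With any 1 array other than knockout 3 left out, 0 of the 20 were called. The share called, 3 of 20, compares with 5.77% of all genes and rests on few members.

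H2az2, a histone H2A.Z variant, read 13.48, 13.55 and 13.56 in the controls and 12.69, 12.99 and 13.03 in the knockouts. The groups did not overlap, and knockout 3 was as low as knockout 2. The fall was 0.63 on the log2 scale (SE 0.085, adjusted p = 0.00156), and the second probe set gave -0.88. In the other regions it fell by 0.55 (distal maxilla) and 0.54 (proximal mandible), and the control arrays of all regions (13.47 to 13.65) lay above the knockout arrays (12.69 to 13.19). Of 6 H2A variant genes, H2az2 and Macroh2a2 (-0.32) fell and 0 rose, with all 6 changes negative and a median of -0.32. H2az2 alone of the list was called in each leave-out fit other than that without knockout 3, where all 6 fell. In that last fit 11.2% of all genes fell.

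**Figure D5:**
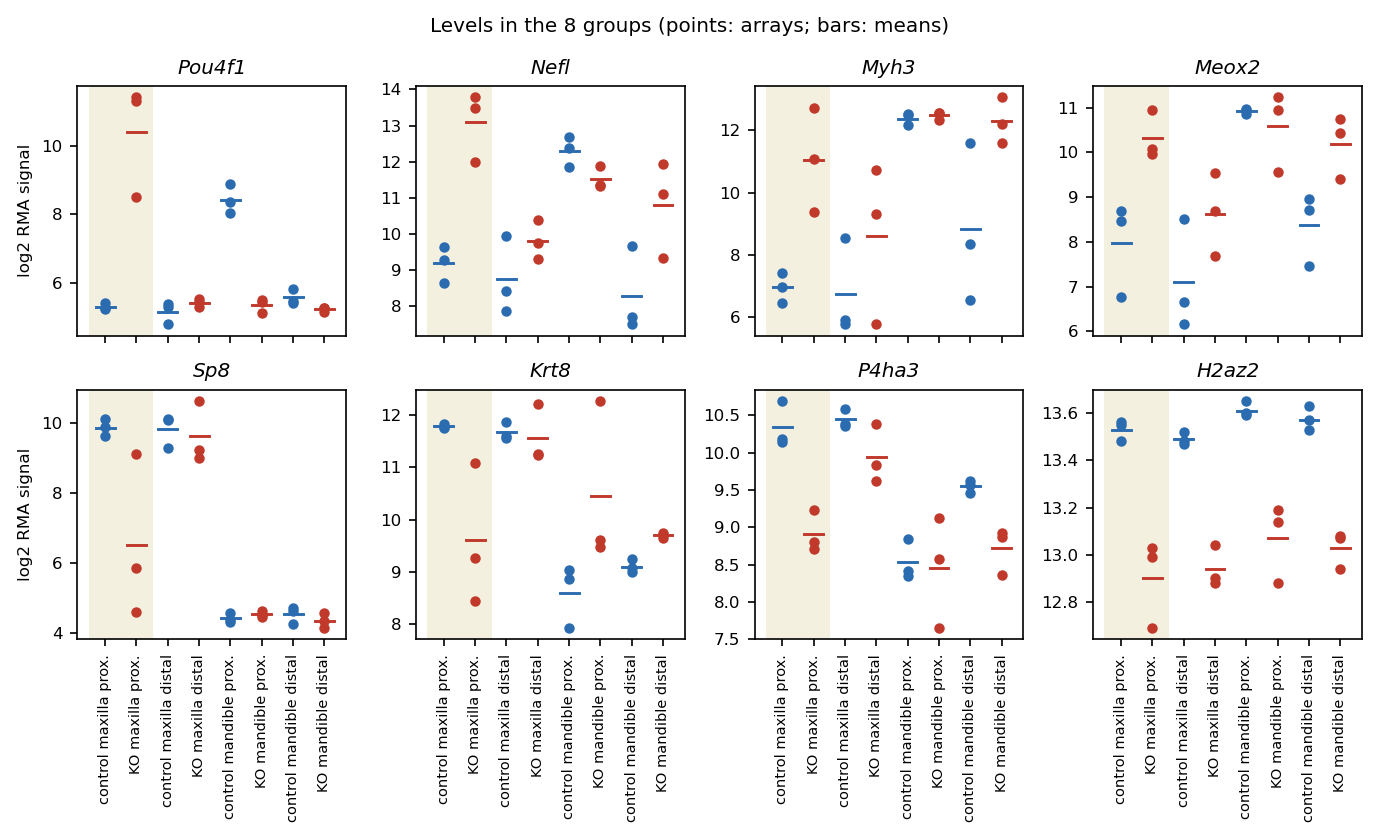
Log2 RMA signal of 8 genes in the 8 groups of the series (blue control, red knockout; points are arrays, bars are means; y axes differ; proximal maxilla shaded). Pou4f1 is at 8.05 to 8.88 in control proximal mandible and 8.50 to 11.41 in knockout proximal maxilla, Sp8 falls in 2 of 3 knockout arrays of this region, and H2az2 is lower in the knockout arrays of every region.

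Patterning genes of the face were mostly not called. Of 19 maxillary and frontonasal genes, 1 fell and 0 rose, with a median of -0.51. Tfap2b, an AP-2 factor of crest and facial ectoderm, read 12.49, 11.87 and 11.74 against 9.90, 10.50 and 11.48, a fall of 1.41 (adjusted p = 0.046). Pax3 (-1.74), Alx1 (-1.52) and Alx4 (-0.73), factors of the frontonasal region, were not called, and knockout 3 differed from the control mean by 0.22 or less in each. Dlx1 (1.83, adjusted p = 0.0634) and Dlx2 (1.41), which pattern the first arch, were also not called, but knockout 3 took part in both (1.60 and 1.30). Of 18 mandibular arch genes, 0 were called, with a median of 0.16, from -1.15 for Dlx6 to 1.58 for Hand2, whose other probe sets gave 0.06 and -0.08. The epithelium list was low in the same arrays as Tfap2b (-1.62 and -1.63 in knockouts 1 and 2), and its part was not tested.

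Of 17 genes of the palate shelf and oral mesenchyme, 1 rose and 0 fell, with a median of 0.07. Meox2, a homeobox gene expressed in palatal shelves and in muscle precursors, read 6.77, 8.68 and 8.46 in the controls and 10.95, 9.96 and 10.07 in the knockouts. Knockout 3 was as high as knockout 2, and the lowest array was control 1. The rise was 2.36 (SE 0.65, adjusted p = 0.0401), with 2.64 in the second probe set, and control proximal mandible read 10.86 to 10.97. The calls of Meox2 and of Hoxd1, below, were lost without any 1 array other than knockout 3. Sim2, a bHLH-PAS factor, had 3.17 (adjusted p = 0.0561) and Barx1, an oral mesenchyme homeobox gene, 1.29, with 3.14 and 1.60 in knockout 3. Msx1 had -1.49 (adjusted p = 0.105) in the group means and -0.11 in knockout 3. Of 11 Hox genes, all with positive changes (median 0.27), Hoxd1 rose. It read 4.26, 6.97 and 5.25 against 10.81, 9.77 and 7.83 (3.98, SE 1.0, adjusted p = 0.0333), where control proximal mandible read 10.26 to 10.51.

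The signalling lists had few calls, where 3.25% of all genes were called higher and 2.53% lower. In the Hedgehog list, Smo (-0.43), the transducer of the pathway, Gli2 (-0.46), its main activating factor, and the co-receptor Gas1 (-0.30) fell, 3 of 15 genes, with 0 higher and a median of -0.25. Smo read 12.36, 12.06 and 12.11 in the controls and 11.66, 11.65 and 11.93 in the knockouts, a change smaller than 1 with no overlap. The target genes Ptch1 (0.13) and Gli1 (-0.20) were not called. In the Wnt list, 1 of 26 fell and 1 rose, with a median of -0.35. The secreted antagonist Dkk1 read 11.75, 10.90 and 11.26 against 9.16, 9.09 and 10.37 (-1.76, SE 0.46, adjusted p = 0.0338), and the related Dkk2 rose by 0.77 (adjusted p = 0.0438) to a like extent in all 3 knockouts (11.44, 11.19 and 11.14 against 10.11, 10.69 and 10.66). The transcription factor Lef1 (-1.23) and the feedback gene Axin2 (-0.47) were not called.

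In the FGF list 1 of 18 fell, Il17rd, a feedback antagonist of FGF signalling (11.66, 11.45 and 11.42 against 10.74, 10.73 and 11.11; change -0.65, adjusted p = 0.0121; list median -0.14). In the retinoic acid list 1 of 14 fell, the binding protein gene Crabp2 (-0.50, adjusted p = 0.0338; median -0.13). Of 21 BMP genes 0 were called (median -0.20, from Msx1 to Chrd at 0.15), and of 15 Notch genes 0 (median -0.05, from -0.63 for Hey1 to 1.23 for Heyl). Of 22 axon guidance genes, the semaphorin receptor Nrp1 (0.89) and the ligand Slit1 (0.62) rose and the netrin receptor Unc5b (-0.87) fell, with a median of 0. Over all genes tested, 3.25% were called higher and 2.53% lower, and each of these list counts rests on few members. Without knockout 3, 5 of 15 Hedgehog, 7 of 26 Wnt and 5 of 21 BMP genes fell, where 11.2% of all genes did, and without any other 1 array 0 Wnt genes and at most 1 Hedgehog gene were called. The neuron, muscle and epithelium lists differed in the same arrays, and their part in these results was not tested.

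Cell cycle genes had 1 of 20 called, lower, with 0 of the 20 changes above 0 (median -0.23). Plk1, a mitotic kinase, read 11.98, 11.85 and 11.82 in the controls and 11.18, 11.32 and 11.71 in the knockouts (-0.48, adjusted p = 0.039). Mki67 had -0.27 and Top2a -0.24. The share called, 1 of 20, was near that of all genes (5.77%). Without knockout 3, 11 of the 20 fell, where 11.2% of all genes did, and in knockout 3 alone the median was -0.02. Knockouts 1 and 2 were also the arrays with the highest neuron and muscle levels, whose part was not tested. Among the p53 targets Sesn2 fell (-0.27; 1 of 13, median 0.05), and among hypoxia and glycolysis genes the hexokinase gene Hk2 (-0.52; 1 of 15, median 0.01). Of 14 immediate early genes (median 0.09, from -0.15 for Zfp36 to 1.09 for Egr2) and 13 sterol and lipid genes (median -0.01, from -0.36 for Insig1 to 0.27 for Fdps), 0 were called. Sex-linked genes followed the single Y-positive control: Xist read 6.19 in it and 13.73 to 13.99 in the other 5 arrays, and 0 of 3 were called.

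Some genes changed as far in knockout 3 as in the others. Those named next were chosen after their values were seen, for showing at least 75% of the difference in knockout 3. Svopl, a transporter homologue, read 6.63, 6.52 and 5.79 in the controls and 4.13, 4.13 and 4.24 in the knockouts (-2.14). These knockout values lay below the filter level, so neither the size of this fall nor the likeness of the knockout arrays is firm for Svopl. Shisa3, an inhibitor of Wnt and FGF receptor maturation, read 5.18, 8.03 and 8.11 against 10.40, 10.17 and 9.70 (2.98), with the widest spread among the controls. Gdnf, the neurotrophic ligand of Ret, read 8.30, 8.13 and 8.35 against 7.48, 7.57 and 7.67 (-0.69), Entpd5 9.00, 9.13 and 8.91 against 8.20, 8.01 and 8.19 (-0.88), and the microglial receptor gene Fcrls 7.32, 7.74 and 8.01 against 8.48, 8.47 and 8.49 (0.79). In these genes, as in P4ha3 and Meox2, the 3 knockout arrays lay within 1 log2 unit of each other.

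Whether the effect differed from that in the other end of the same jaw was tested within the same fit. The difference of effects was called for 6 genes (0.0403%), and the effect in distal maxilla by itself was called for 3 (0.0202%). Ppp1r1c (5.78), Pou4f1 (4.82), Ppp1r17 (4.76) and Prrxl1 (3.76) rose more in proximal maxilla. Pou4f1 read 5.29 to 5.53 in knockout and 4.80 to 5.38 in control distal maxilla, where its change was 0.26 against 5.09 in the proximal end. Umodl1 (-2.14) and the kinase gene Stk32a (-0.69) had a negative change in the proximal end and a positive one in the distal end. Umodl1 read 6.58, 6.06 and 5.90 in the proximal controls and 4.81, 5.08 and 4.78 in the proximal knockouts, against 4.98 to 6.08 and 5.84 to 6.92 in the distal ones. Stk32a read 5.78, 5.87 and 5.85 in the proximal controls, near the filter level, and 5.38, 5.61 and 5.55 in the proximal knockouts. Both genes lay below the filter level in the proximal knockouts, so the size of their differences is not firm. Leaving out single arrays gave 2 to 4 genes, except 1029 without knockout proximal maxilla 3. The medians of the muscle, neuron and epithelium lists were 1.03, 0.07 and 0.26 in distal maxilla, given side by side with 2.78, 1.22 and -1.38 in proximal maxilla. In distal mandible the medians of muscle, sensory neuron and epithelium were 2.80, -0.11 and 0.10, so the muscle median there was as high as in proximal maxilla.

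Against the effect in proximal mandible, the difference was called for 104 genes (0.699%), 63 positive and 41 negative, while the effect in proximal mandible by itself was called for 8 (0.0538%). The largest differences were those of Ppp1r1c (8.61), Pou4f1 (8.15), Ppp1r17 (7.70) and Onecut2 (6.70). Pou4f1 moved in opposite directions in the 2 jaws. It read 8.05 to 8.88 in control and 5.14 to 5.51 in knockout proximal mandible, a change of -3.07, so the region in which it was high differed between the genotypes. The sensory neuron list had a median of -1.18 there. The largest negative differences were Elf5 (-4.54), Krt8 (-4.04), Macc1 (-3.47) and Krt18 (-3.38), with an epithelium list median of 1.00 in proximal mandible. The muscle list had a median of 0.10 in proximal mandible and of 2.80 in distal mandible. Leaving out single arrays gave 20 to 163 genes, except 1423 without knockout proximal maxilla 3.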

How the data were processed

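RNA of both ends of the mandible and maxilla was hybridised to 24 single-colour arrays with 45101 probe sets, as biotin-labelled cRNA per the labels' protocols. The deposited table holds log2 signals from RMA, per the submitters' processing notes, with no RMA version stated. They were used as deposited. No 2 of the arrays were copies (smallest root mean square difference 0.196).

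The platform annotation gave 34945 probe sets with 1 gene symbol. Not used were 932 with several symbols, 9160 unnamed and 64 control probe sets. The brightest probe set on average stood for each of 18193 genes, and genes above the 30th percentile of the array in at least 3 arrays were tested. A change at low signal is understated. The number of arrays limits the precision.

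Limma 3.58.1 in R 4.3.3 fitted 8 group means to all 24 arrays (16 residual degrees of freedom). The fit was tried on simulated data with independent arrays and an equal spread in all groups. That setting leaves out the wider spread of the knockout proximal maxilla arrays. Contrasts were tested two-sided with Benjamini-Hochberg adjustment over 14879 genes, and genes with an adjusted p under 0.05 were called. An exact permutation test of 3 arrays against 3 cannot go below 0.1, so none was used. Array numbers were not used to pair the arrays in this fit (same-number correlations 0, 0.07 and -0.05). The control arrays with Y-linked signal had the same number in every region, however. Whether same-number arrays of a genotype came from the same embryos was not tested. The fit treated all arrays as independent, also for the differences of effects between regions.

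The comparison and the 35 gene lists were chosen with earlier results of these data known. Named were Tgfbr2 and H2az2, the 12 largest changes called in each direction, up to 4 called genes of a list or else its extremes, and the 4 largest called differences of effects in each direction. Of the list genes, 14 lay below the filter and others were not analysed here. Promoters are RefSeq windows of GRCm38.p6. Alternatives changed the scaling, filter, probe set rule, prior, weights, arrays and block.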

Additional observations from a re-analysis of the deposited data

Results flagged for a closer look

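The change between knockout and control in proximal maxilla differed from that in another region, by a test of the difference itself in the same limma fit with Benjamini-Hochberg adjustment, for the genes below.

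Against distal maxilla, the difference of the changes was 5.78 for Ppp1r1c (adjusted p = 0.00294), 4.82 for Pou4f1 (0.00843), 4.76 for Ppp1r17 (0.0414) and 3.76 for Prrxl1 (0.0479), each higher in the 3 knockout arrays than in the 3 controls of proximal maxilla. Umodl1 differed by -2.14 (0.0414) and Stk32a by -0.69 (0.0153), each lower in 3 of 3 proximal knockout arrays. Both lay below the filter level in these knockout arrays, so the size of their differences is not firm.

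Against proximal mandible, the difference was 8.61 for Ppp1r1c (adjusted p = 3.11e-06), 8.15 for Pou4f1 (3.11e-06), 7.70 for Ppp1r17 (6.93e-05) and 6.70 for Onecut2 (0.00198). The means of all 4 were lower in the knockout in proximal mandible and higher in proximal maxilla. The epithelial genes Elf5 (-4.54, 0.0439), Krt8 (-4.04, 0.0364) and Krt18 (-3.38, 0.0339), and Macc1 (-3.47, 0.0165), had the opposite signs. Knockout proximal maxilla 3 held a smaller change than knockouts 1 and 2 in all 8 genes.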

How the results depend on the processing

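For the comparison in proximal maxilla (859 calls), the scaling, filter, probe set and prior alternatives gave 719 to 937 calls. Array weights gave 3245, a change of at least 1 gave 348, the 6 arrays alone gave 0 (2290 unadjusted), leaving out 1 array gave 19 to 3366, leaving out knockouts 1 and 2 (1 knockout array left, its spread taken from the other groups) gave 7, leaving out both ends of control maxilla 1 and of knockout mandible 1 gave 15, and leaving out control 2 of every region, with Y-linked signal, gave 17. With the array number as a fixed replicate block the count was 1717 over 24 arrays and 0 in the 6 arrays (1749 unadjusted). Genotype and array number together as a random block gave 934 (correlation 0.16). The numbers share no origin in the labels.

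Against distal maxilla (6 calls), the stricter filter gave 2, weights 1130, the compared groups alone 0 (1014 unadjusted) and 0 with the replicate block (1059), the fixed block 3, the random block 15, and leaving out 1 array 2 to 1029. Against proximal mandible (104), weights gave 2194, the compared groups alone 10 and 3 with the replicate block, the random block 229, and leaving out 1 array 20 to 1423.

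Of the 98 genes named, values that changed sign were all uncalled. Kit (-0.07) had 0.01 as the mean of probe sets, -0.24 to 0.04 with 1 array out and 0.04 without control 2 of every region. Sp5 (0.20) had -0.06 to 0.55 and -0.04, and Xist (2.49) -0.07 to 3.83 and -0.07. Without knockouts 1 and 2, Pmel had -0.34, Scx 0, Egr2 -0.21 and Fdps -0.02. The cause was not tested. In the 6 arrays alone, 71 of the 98 genes lost a call, none changing sign.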
